A study of Mus musculus with 15 samples.

Results

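The comparison described here is the change of RNA levels over 24 h of doxycycline that is particular to organoids able to make the glycan CA19-9. It was obtained as a difference of differences: the log2 change between 24 and 0 h in CA19-9 inducible lines minus the log2 change between 24 and 0 h in genetic negative lines. Doxycycline itself was shared by both genotypes, and, per the labels' protocols, treated and untreated cultures had their medium renewed at the same time before a common harvest. The 10 libraries of 0 and 24 h were used, out of 15 in the series, 1 for each organoid line and time. The remaining 5 libraries, taken after 4 h, added only to the estimate of the spread.

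The organoids were grown from ducts of normal mouse pancreas in growth factor reduced Matrigel, in a medium with EGF, FGF-10, gastrin, Noggin, R-Spondin 1 and the inhibitor A 83-01. The inducible lines A217, A220 and A225 (n = 3) carry all alleles needed for CA19-9. The genetic negative lines A218 and A223 (n = 2) lack 1 of these alleles, and the labels do not say which. Cultures of both genotypes were harvested after 24 h of doxycycline at 1 µg/ml or untreated, at 0 h. Lines served as replicates, and since the labels do not say whether they came from separate animals, p-values measure only the spread between these lines.

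CA19-9 is the sialyl Lewis a epitope, a short glycan on secreted and membrane proteins, and a blood marker of pancreatic disease in patients. Its synthesis needs a galactose in a beta1,3 linkage, a sialic acid and a fucose, added by separate Golgi transferases, and mice do not make the epitope. Doxycycline-inducible alleles are driven by rtTA, an engineered transcription factor that binds DNA when the drug is present.

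The counts summed to between 47915632 and 59411540 per library, and the libraries of each group differed by more than sampling noise. Levels are given as counts per 1000000 with TMM scaling (CPM), changes and differences on the log2 scale. Of 30 duct markers, 28 averaged at least 1 CPM, and their summed level was 18240 to 19640 CPM in inducible lines at 24 h and 14410 to 16250 at 0 h, against 19930 to 20470 in negative lines at 24 h and 15030 to 15130 at 0 h. Markers of other cells were low. Acinar markers summed to at most 3.40 CPM in any of the 10 libraries, with Cpa1, Prss1, Ptf1a and Pnliprp1 at 0 throughout. Endocrine markers summed to at most 0.849 CPM, with Ins1, Ins2 and Gcg at 0, and fibroblast markers to at most 7.78 CPM. Endothelial markers summed to at most 7.62 CPM, and Pecam1 among them averaged 4.61 CPM. The acinar marker Cela1, the fibroblast marker Thy1 and Pecam1 reached the level for testing, with differences of -0.93, 0.045 and 0.39, and none passed. Cela1, at a mean of 1.32 CPM, changed by -0.25 in inducible lines and by 0.68 in negative lines, where the rise was called. Of 10 immune markers, Cd14 held most of a sum of 79.1 to 106 CPM, and Adgre1 and C1qa were at 0. In bulk RNA, fewer cells of a type and less RNA per cell cannot be told apart.

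The induced sequences rose in the inducible lines, and their changes in the negative lines did not pass the test. EGFP, a fluorescent reporter counted through an added sequence, stood at 281, 382 and 268 CPM in A217, A220 and A225 at 24 h, against 0.343, 0.740 and 0.439 CPM in the same lines at 0 h. In the negative lines A218 and A223 it stood at 0.189 and 0.155 CPM at 24 h, against 0.310 and 0.167 CPM at 0 h. Every inducible library at 24 h thus lay above all other libraries of the comparison. The difference of responses was 9.73 ± 0.76 (SE; edgeR quasi-likelihood adjusted p = 0.000117). The human transcripts, 16 sequences counted as 1 feature, were induced as a sum in the same libraries. A single sequence held 54.1% of the counts of this feature in the series, the next 45.9%, and every other 0.061% or less. The sum of the human transcripts was 776, 1036 and 724 CPM in A217, A220 and A225 at 24 h, against 1.68, 1.72 and 3.02 CPM at 0 h. In A218 and A223 it was 0.831 and 1.98 CPM at 24 h, against 0.852 and 0.945 CPM at 0 h. The sum was thus higher at 24 h in A223, at levels near 1 CPM, and the change in the negative lines was 0.63 (edgeR adjusted p = 0.31). The difference was 7.96 ± 0.66 (SE; edgeR adjusted p = 0.000117). Without the negative line A218, only the human transcripts stayed below the threshold (edgeR adjusted p = 0.00992), while EGFP kept a difference of 9.36 (edgeR adjusted p = 0.0501).

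The 3 other added sequences tested did not pass. The doxycycline-dependent activator rtTA3 stood at 95.8, 199 and 159 CPM in the 3 inducible lines at 24 h and at 99.2, 152 and 144 CPM at 0 h. The negative lines had 140 and 178 CPM at 24 h and 140 and 168 CPM at 0 h. The difference of responses of rtTA3 was 0.12 (95% interval -0.13 to 0.37; edgeR adjusted p = 0.787). That of the red fluorescent protein mKate2 was -0.04 (95% interval -0.30 to 0.22; edgeR adjusted p = 0.949). The resistance gene Puro gave -0.61 with a wide interval of -3.30 to 2.08, at about 1 CPM. All intervals given here are unadjusted for the number of features.

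**Figure D1:**
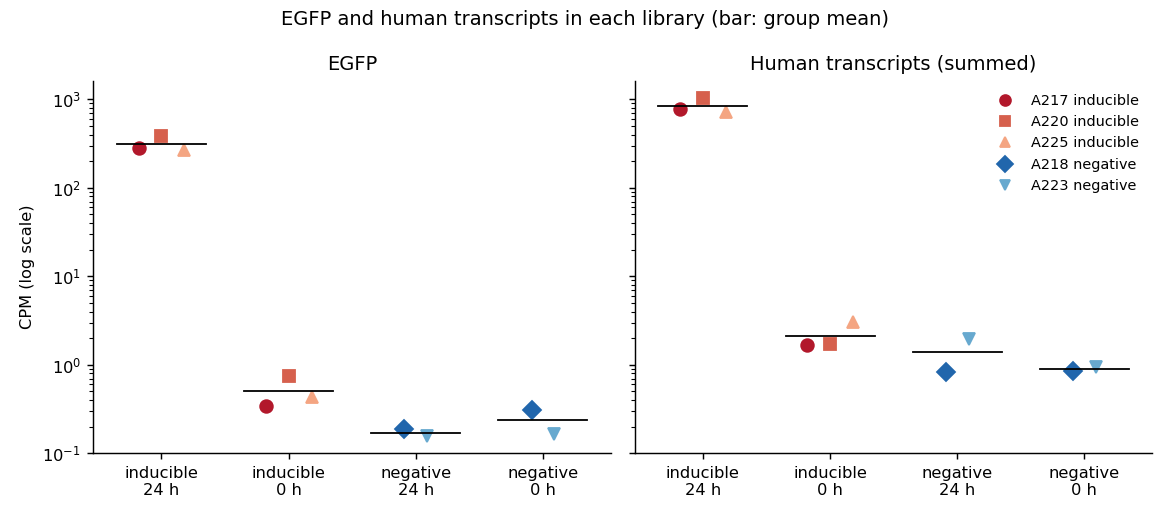
CPM (log axis) of EGFP and of the summed human transcripts in each of the 10 libraries, by genotype and time, with a bar at the group mean. The inducible lines at 24 h stand at 268 to 382 CPM for EGFP and 724 to 1036 CPM for the human transcripts, and every other library stands at 3.02 CPM or less.

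Across the transcriptome, 3 of 12167 features passed the test of the difference (0.0247%; edgeR quasi-likelihood with Benjamini-Hochberg adjustment below 0.05). EGFP and the human transcripts were higher (0.0164%), and a single mouse feature, the processed pseudogene Gm5537, was lower (0.00822%). Without adjustment, 1122 features (9.22%) had p below 0.05, of which 553 (4.55%) were higher and 569 (4.68%) lower. From the same 12167 features limma called 2 and DESeq2 called 16, but DESeq2 gave no adjusted p for some features, Gm5537 among them. Without the line A218, edgeR called fewer features. Changes in the 3 inducible lines all lay above both negative lines for 1583 features (13.0%), and all below for 1928 (15.8%). A permutation of 3 against 2 lines cannot give an exact two-sided p below 0.1, so no gene was tested that way.

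The fit bounded most genes closely. For the 11794 protein-coding genes the difference had a median SE of 0.091, and its 95% interval reached a median of 0.197 to either side. The whole interval lay within 0.5 of 0 for 9439 of these genes (80%), and within 1, a doubling or halving, for 11314 (95.9%). The central 90% of the differences ran from -0.25 to 0.24, with a median of -0.006.

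Gm5537 is a copy of the messenger RNA of Pgk1, the glycolytic enzyme phosphoglycerate kinase, on chromosome 3 (GRCm38, 58102996 to 58104247, minus strand). All of its 1252 bases were identical to positions 152 to 1403 of the Pgk1 transcript, whose gene lies on chromosome X. Another processed pseudogene, Pgk1-rs7 on chromosome 12, was identical to Pgk1 over all of its 1255 bases. The same 60 bases of each are shown, in lower case, because the 3 loci read the same there. In Pgk1 the stretch is coding sequence in exon 8 of 11. The sequences, from the GENCODE M21 transcripts on GRCm38, are
Gm5537, chr3:58103432-58103491, minus strand: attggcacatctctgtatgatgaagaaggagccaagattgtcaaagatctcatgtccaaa
Pgk1, chrX:106200157-106200216, plus strand: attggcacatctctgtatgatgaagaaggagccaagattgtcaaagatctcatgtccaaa
Pgk1-rs7, chr12:10899426-10899485, minus strand: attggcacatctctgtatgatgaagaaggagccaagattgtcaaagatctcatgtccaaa

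The estimated counts of Gm5537 were 0, 0 and 0 in A217, A220 and A225 at 24 h, against 128, 31 and 1 at 0 h. They were 441 and 0 in A218 and A223 at 24 h, against 0 and 0 at 0 h. A single library, A218 at 24 h, thus held every count of the negative lines at these times. The fitted difference of -19.41 ± 1.14 (SE; edgeR adjusted p = 0.00256) depends on how counts of 0 are handled and is no measure of size. Pgk1 had 45277, 47820 and 49312 counts in the inducible lines at 24 h, against 46250, 59459 and 56980 at 0 h. It had 55000 and 56662 in the negative lines at 24 h, against 52942 and 60536 at 0 h. The difference of responses of Pgk1 was -0.03 (95% interval -0.23 to 0.17; edgeR adjusted p = 0.955). With the copies summed into Pgk1, or with processed pseudogenes left out, the test called 2 features, EGFP and the human transcripts, and no feature of the mouse genome (both settings were chosen after the values were seen). The count of Gm5537 is therefore uncertain, and no change of that locus is claimed. The same holds for Gm11518, which is identical to Rpl27 over all of its 411 bases and was called when the 4 h libraries were left out.

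The genes with the smallest p among those whose lines did not overlap, leaving out predicted genes, pseudogenes and added sequences, are given as values that did not pass with edgeR. The gene nearest the threshold was Creb3l2, which encodes a membrane-bound transcription factor of the CREB3 family. It stood at 69.7, 67.2 and 64.1 CPM in A217, A220 and A225 at 24 h, against 52.1, 50.1 and 46.5 CPM at 0 h. The negative lines A218 and A223 had 53.4 and 60.5 CPM at 24 h, against 52.98 and 63.8 CPM at 0 h. All 3 inducible lines were higher at 24 h than at 0 h, with changes of 0.42, 0.42 and 0.46, against 0.01 and -0.08 in the negative lines. The difference was 0.47 ± 0.07 (SE; 95% interval 0.31 to 0.63; edgeR adjusted p = 0.06). The adjusted p of Creb3l2 was 0.00012 with DESeq2 and 0.0468 with the 10 libraries alone, and 0.724 without A223.

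For most other leading genes with a positive difference, the negative lines moved and the inducible lines moved less. Only 3 of the 10 leading genes with a positive difference had the larger absolute change in inducible lines. They were picked by the p of the same difference, and no share over all features was taken, so the count only describes them. Pou2f2, an octamer-binding transcription factor, stood at 0.770, 0.997 and 1.503 CPM in A217, A220 and A225 at 24 h, against 0.668, 0.540 and 0.911 CPM at 0 h. In A218 and A223 it stood at 0.812 and 0.659 CPM at 24 h, against 2.60 and 2.52 CPM at 0 h, so that the 2 negative libraries of 0 h were above all others. Its difference was 2.39 ± 0.50 (SE; edgeR adjusted p = 0.384), and its adjusted p was 0.0468 with the 10 libraries alone. Bgn, the matrix proteoglycan biglycan, had a difference of 1.03, with changes of 0.27, 0.57 and 0.19 in inducible lines and -0.51 and -0.84 in negative lines. Gatad2b, a subunit of the NuRD chromatin complex, had 0.53 and Taf15, an RNA-binding protein, 0.41. Smaller differences were found for Prrc2c (0.35), the TRAPP complex subunit Trappc8 (0.34), the tankyrase Tnks (0.32), Vps13d (0.28) and the SWI/SNF subunit Smarcc1 (0.27). Their adjusted p-values with edgeR were 0.383 or 0.384. DESeq2 called Prrc2c, Trappc8 and Smarcc1 (adjusted p = 0.0156 each) and Tnks (adjusted p = 0.0439). It gave no adjusted p for Pou2f2, Gatad2b and Taf15, so these genes were not judged by it.

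Among the 10 leading genes with a negative difference, the absolute change was larger in the negative lines for all 10. Trappc6a, another TRAPP subunit, stood at 52.0, 60.9 and 51.1 CPM in A217, A220 and A225 at 24 h, against 52.7, 65.3 and 51.3 CPM at 0 h. The values in A218 and A223 were 63.3 and 63.6 CPM at 24 h, against 48.2 and 48.4 CPM at 0 h. The difference was -0.44 ± 0.07 (SE; edgeR adjusted p = 0.133). Csrp1, an actin-associated LIM protein, rose in both genotypes, by 0.28 in inducible lines (edgeR adjusted p = 0.000168) and 0.59 in negative lines (edgeR adjusted p = 2.33e-06). The difference for Csrp1 was -0.32 (edgeR adjusted p = 0.199). Paqr7, a membrane progestin receptor, gave -0.38, after rises of 0.87 in inducible and 1.24 in negative lines. The others were Dpm3 (-0.48), which belongs to the enzyme that makes dolichol phosphate mannose, Prmt2 (-0.42), Haghl (-0.38), the galactokinase Galk1 (-0.35), Uqcr11 (-0.30) and Ndufb7 (-0.27) of the respiratory chain, and the myosin light chain Myl6 (-0.22). Their edgeR adjusted p-values were 0.384. DESeq2 called 6 of these 10 genes, Trappc6a (adjusted p = 0.00178), Csrp1 (0.00199), Myl6 (0.0388), Galk1 (0.0439), Uqcr11 (0.0439) and Paqr7 (0.0451).

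**Figure D2:**
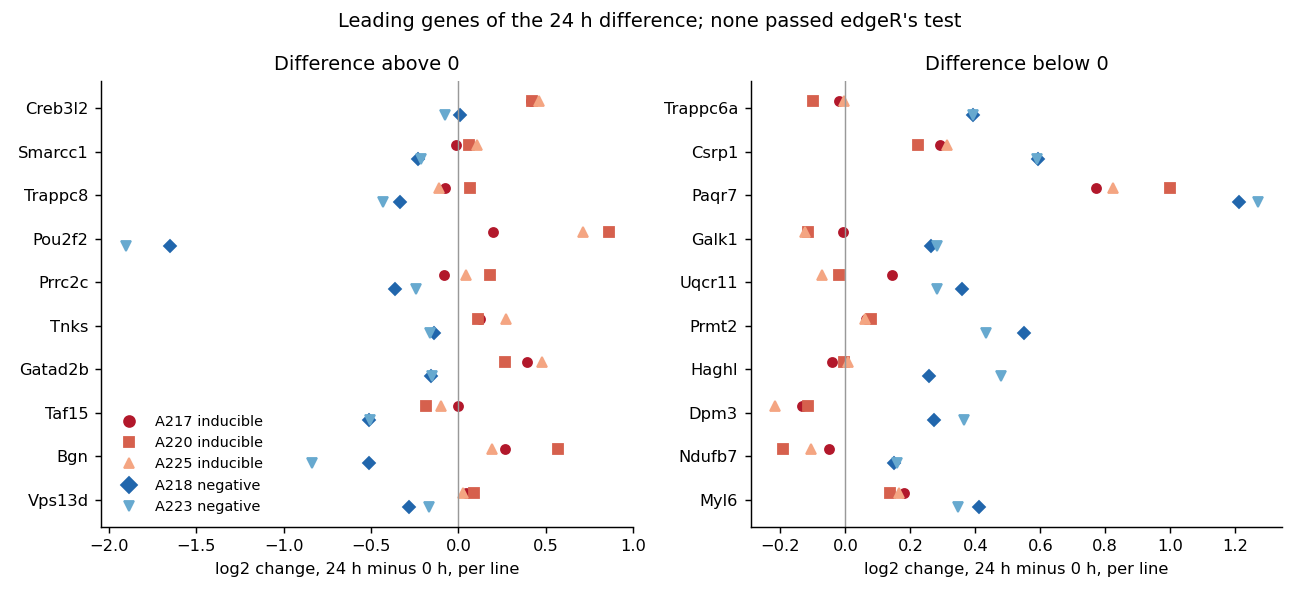
The log2 change between 24 and 0 h in each organoid line for the 10 leading genes per direction, inducible lines (red) drawn above negative lines (blue) for each gene. For Creb3l2 the inducible lines sit at 0.42 to 0.46 and the negative lines near 0, while for Trappc6a the inducible lines sit near 0 and both negative lines at 0.39.

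Both genotypes responded to doxycycline over 24 h. In the inducible lines 4098 features changed (33.7%), of which 2049 rose (16.8%) and 2049 fell (16.8%). In negative lines 3737 features changed (30.7%), with 1923 higher (15.8%) and 1814 lower (14.9%; edgeR adjusted p below 0.05 for all). The number of calls in inducible lines was 3802 without A217, 2005 without A220 and 2042 without A225. In the negative genotype, leaving out a line left a single line, so call numbers there cannot show reliance on either line. The same direction was called in both for 2613 features, 63.8% of the inducible and 69.9% of the negative calls. A call in 1 genotype alone does not show a difference, since the difference itself passed for 3 features. Opposite directions were called for 6, namely Gm5537, 2 other processed pseudogenes (Gm15452 and Gm2541) and the genes Tnks, Ndufb7 and Timm13, a mitochondrial import chaperone, whose differences were 0.32, -0.27 and -0.29. Over protein-coding genes, the responses of the genotypes, which share no library, correlated with a Pearson r of 0.789 (a description over 11794 genes, which are not independent). The changes of single lines correlated at 0.591 to 0.687 between inducible lines, at 0.714 between the negative lines and at 0.620 to 0.692 across genotypes, so the ranges within inducible lines and across genotypes overlapped. Of the 5 lines, A217 had the smallest spread of changes over protein-coding genes (median absolute deviation, scaled to an SD), 0.155, against 0.222 and 0.232 in A220 and A225 and 0.221 and 0.226 in A218 and A223.

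Genes with the strongest shared change were chosen after their values were seen, to show how tightly the difference is bounded there. Oprd1, the delta opioid receptor, stood at 56.8, 84.1 and 74.9 CPM in A217, A220 and A225 at 24 h, against 5.02, 3.58 and 3.51 CPM at 0 h. Negative lines gave 69.8 and 65.3 CPM at 24 h, against 3.45 and 3.54 CPM at 0 h. All lines at 24 h thus exceeded all lines at 0 h, whatever their genotype. The rise was 4.14 in inducible and 4.27 in negative lines, and the difference -0.13 (95% interval -0.66 to 0.39). Gstm5, a glutathione S-transferase, rose by 2.45 and 2.72, with a difference of -0.27 (95% interval -0.50 to -0.04; edgeR adjusted p = 0.494). Angptl4, a secreted inhibitor of lipoprotein lipase, rose by 2.24 and 2.51 (95% interval of the difference -0.56 to 0.03), and Mylk, the myosin light chain kinase, by 2.25 and 2.42 (-0.68 to 0.33). Sult1c2, a sulfotransferase, fell by 0.88 in inducible and 1.08 in negative lines (95% interval of the difference -0.15 to 0.56).

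**Figure D3:**
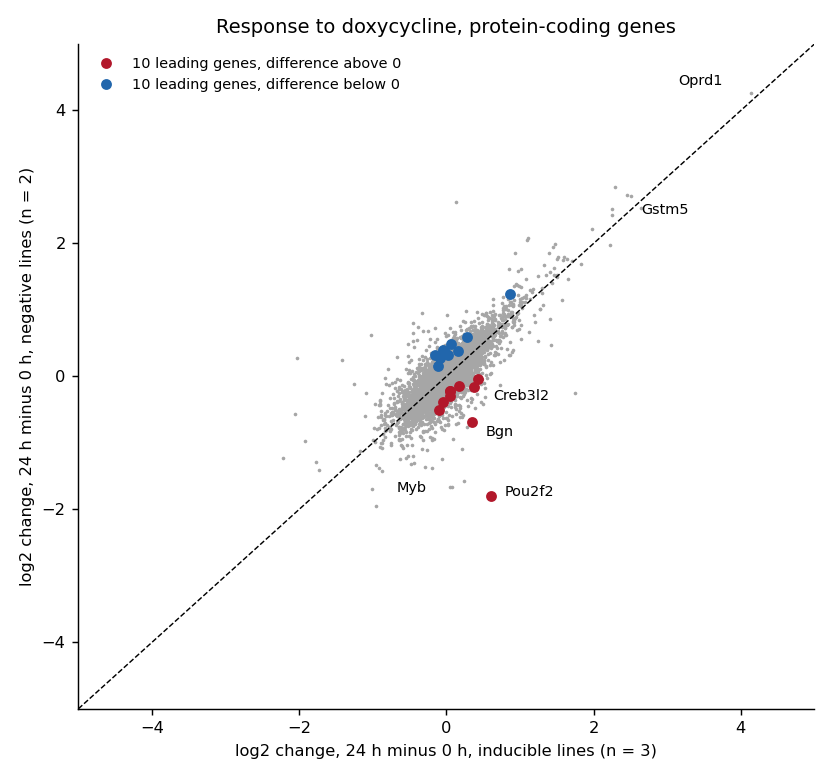
The log2 change between 24 and 0 h in inducible lines (x axis, n = 3) and in negative lines (y axis, n = 2) for 11791 protein-coding genes, with a dashed line of equal change; the 3 genes beyond 5 on either axis (Gm28635, Hbb-bs, Vstm2b) are left out. Shared responders such as Oprd1 and Gstm5 lie far from the centre, and the 20 leading genes of the difference (red and blue) lie nearer to it. Distance from the dashed line does not separate them: the difference was -0.27 for Gstm5 and -0.22 for the leading gene Myl6.

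The gene lists were read against the whole table: the median difference over all features tested was -0.005, and in no list did a member pass edgeR's test. DESeq2 called 3 list members, Galk1, Myl6 and the tight junction scaffold Tjp1 (adjusted p = 0.0439, 0.0388 and 0.0451). In the study's wider work the glycan has been tied to signalling by the EGF receptor, so this family was bounded first. Of its 20 listed members, 16 were tested. Their differences ran from -0.16 to 0.16, with a median of 0.053 (0.002 without A218 or without A223, and 0.031 without A217). Of the 16 intervals, 15 lay within 0.5 of 0, against 80% over all protein-coding genes tested. Egfr, the receptor itself, stood at 96.0, 105 and 132 CPM in A217, A220 and A225 at 24 h, against 91.8, 104 and 134 CPM at 0 h. In A218 and A223 it stood at 102 and 97.2 CPM at 24 h, against 104 and 99.5 CPM at 0 h. The difference for Egfr was 0.05 (95% interval -0.10 to 0.19; edgeR adjusted p = 0.865), and its sign changed, to -0.07, with an offset for GC content and length. Efemp1, which encodes the secreted protein fibulin-3, gave -0.01 (95% interval -0.13 to 0.11). Hbegf, a ligand, rose by 0.38 in inducible lines (edgeR adjusted p = 0.000195) and by 0.54 in negative lines (edgeR adjusted p = 8.6e-05), with a difference of -0.16 (95% interval -0.33 to 0.02). The ligand Areg gave 0.16 (95% interval -0.14 to 0.46), and the protease Adam10, which releases ligands, 0.13 (95% interval -0.01 to 0.27).

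Readouts of signalling at the RNA level did not pass the test either. Of 20 ERK feedback targets, 19 were tested, with a median of -0.023 (-0.044 without A220 or without A225, and -0.015 without A217). The intervals of 15 lay within 0.5 of 0, against 80% of all protein-coding genes tested. Dusp6, a phosphatase of ERK, gave 0.00 (95% interval -0.17 to 0.18) and Spry2, a feedback inhibitor of receptor signalling, 0.08 (95% interval -0.05 to 0.21). Ier3, an early response gene, had the smallest p of the list, with -0.29 (95% interval -0.46 to -0.12; edgeR adjusted p = 0.426). Among 18 immediate early genes tested, the median was -0.06. Jun gave -0.34 and Junb -0.20, both subunits of AP-1, and Myc 0.15 (edgeR adjusted p = 0.469, 0.508 and 0.527).

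No gene of the mouse's own glycan machinery passed with edgeR, while DESeq2 called Galk1 (adjusted p = 0.0439). Of 39 glycosyltransferases of Lewis and mucin glycans tested, 4 had an unadjusted p below 0.05 with a positive difference, against 4.55% of all features, and 12 lay above both negative lines, against 13.0%. Their median was 0.067, and 0.022 without A223 and 0.042 without A218. The 4 were Galnt4, an initiator of mucin-type chains (0.18), B4galt1, a galactosyltransferase (0.18), Fut11, annotated as a fucosyltransferase (0.21), and Gcnt2, a branching enzyme (0.12), with edgeR adjusted p-values of 0.475 to 0.526. Mouse B3galt5 had 6 to 31 counts per library and was not tested, and Fut1 gave -0.48 (95% interval -1.26 to 0.31) at about 1 CPM. Of 22 genes of nucleotide sugar synthesis and Golgi transport, 5 had an unadjusted p below 0.05 with a negative difference, against 4.68% of all features. Among these were the galactokinase Galk1 (-0.35), the GDP-fucose enzymes Tsta3 (-0.22) and Fuk (-0.24), and the UDP-galactose transporter Slc35a2 (-0.20; edgeR adjusted p 0.384 to 0.494). Galk1, Tsta3 and Fuk rose in negative lines, and stood at -0.08, 0.00 and -0.04 in inducible lines, against 0.27, 0.22 and 0.19 in negative lines. The median of the 22 genes was -0.07, and -0.01 without A217.

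Inflammation and NF-kB genes had the most negative median among the lists with at least 3 tested genes, -0.18 over 27 tested genes. They include cytokines, chemokines and parts of the NF-kB pathway. They rose in both genotypes: 18 members rose and 1 fell in inducible lines (16.8% of all features in each direction), and 20 rose and 1 fell in negative lines (15.8% and 14.9%). The median change of the list was 0.29, 0.42 and 0.46 in A217, A220 and A225, against 0.64 and 0.63 in A218 and A223. An unadjusted p below 0.05 with a negative difference was found for 8 of 27 members (4.68% of all features), and 13 of 27 lay below both negative lines (15.8% of all features). No member passed, so this is a description. Relb, an NF-kB subunit, stood at 19.0, 21.7 and 15.5 CPM in A217, A220 and A225 at 24 h, against 14.2, 16.4 and 11.1 CPM at 0 h. Its level in A218 and A223 was 22.9 and 22.7 CPM at 24 h, against 13.0 and 13.0 CPM at 0 h. Relb was higher at 24 h in every line, by 0.41 to 0.48 in inducible and by 0.80 to 0.82 in negative lines, and the difference was -0.37 ± 0.09 (SE; edgeR adjusted p = 0.406). Icam1, an adhesion molecule, gave -0.33, the chemokines Ccl2 and Ccl20 -0.45 and -0.35, and Nfkbia, the inhibitor of NF-kB, -0.24 (edgeR adjusted p 0.406 to 0.475). Csf1, Csf2 and Il33 rose in both, with differences of -0.20, 0.01 and 0.00. The list's median stayed between -0.20 and -0.13 in all 15 alternative settings. Csf1r, an immune marker at 1.56, 1.44 and 3.81 CPM in inducible lines at 24 h and 2.23 and 2.17 CPM in negative lines at 24 h, had a difference of -0.92 (edgeR adjusted p = 0.475), while the 2 other immune markers tested, Cd14 and Cd68, had 0.01 and 0.20. Their part in the result was not tested.

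**Figure D4:**
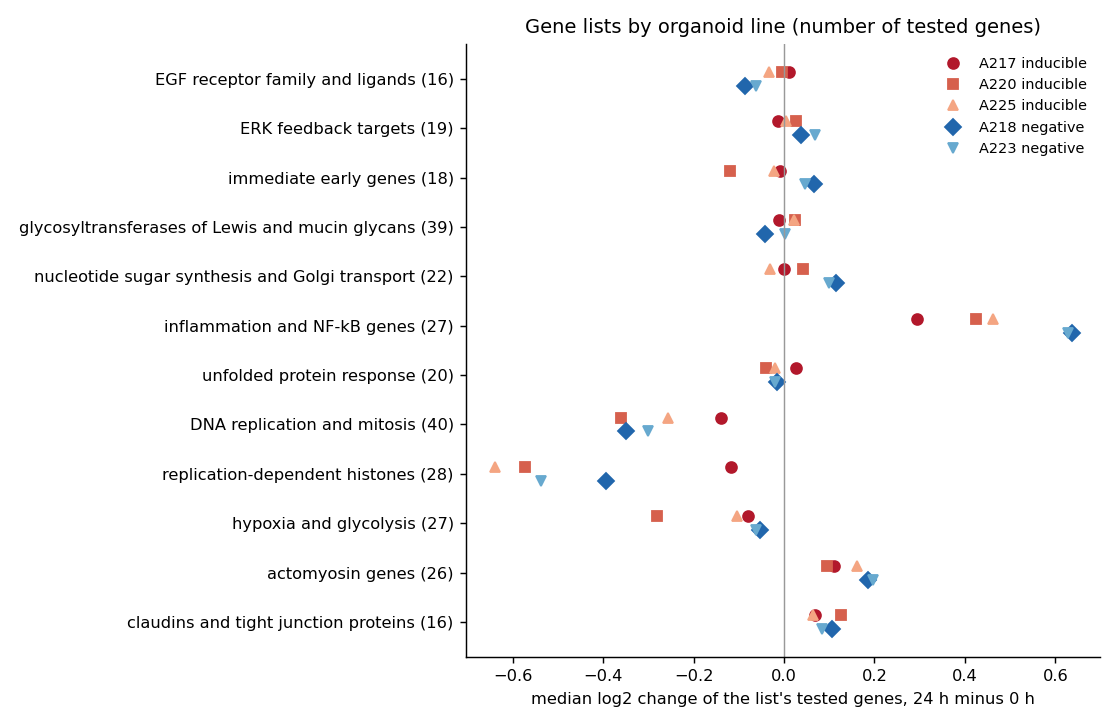
Median log2 change between 24 and 0 h of the tested genes of 12 lists in each organoid line, inducible lines (red) above negative lines (blue). Inflammation and NF-kB genes sit at 0.29 to 0.46 in inducible and 0.63 to 0.64 in negative lines, and replication genes and histones sit below 0 in all 5 lines.

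Proliferation genes fell in both genotypes. Of 40 genes of DNA replication and mitosis, 38 fell in inducible and 35 in negative lines, and of 28 replication-dependent histones, 28 and 26 fell (16.8% and 14.9% of all features). The median difference was 0.06 for replication and mitosis, and all 40 intervals lay within 0.5 of 0 (80% of protein-coding genes). Mki67, a marker of cycling cells, fell by 0.14 in inducible lines (edgeR adjusted p = 0.0262) and by 0.41 in negative lines (edgeR adjusted p = 0.000203), with a difference of 0.27 ± 0.07 (SE; edgeR adjusted p = 0.426). Top2a, a topoisomerase of dividing cells, gave 0.18. The change in A217 was nearest to 0, and without it the median difference of the 40 genes was 0.005, against 0.108 without A220. For the histones the median was 0.032 in all lines, and from -0.136 without A217 to 0.126 without A220.

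Stress and structural lists gave small values. All 20 genes of the unfolded protein response had intervals within 0.5 of 0 (80% of protein-coding genes). Their median difference was 0.004 (-0.025 without A217 to 0.023 without A220). Pdia3, a disulfide isomerase of the endoplasmic reticulum, had the smallest p of the list, with a difference of 0.12 (edgeR adjusted p = 0.544). Hypoxia and glycolysis genes had a median of -0.12 over 27 tested, and 13 of them lay below both negative lines (15.8% of all features). Pfkl, which encodes a phosphofructokinase, gave -0.36 and Aldoc, an aldolase, -0.31 (edgeR adjusted p = 0.475 and 0.507). A220 had the lowest list median of the 5 lines, and the median difference was -0.063 without A220 and -0.185 without A217. Of 26 actomyosin genes, 8 had an unadjusted p below 0.05 with a negative difference (4.68% of all features), with a median of -0.08. Myl6 rose by 0.16 in inducible lines (edgeR adjusted p = 0.00221) and by 0.38 in negative lines (edgeR adjusted p = 3.51e-05), and Cnn2, a calponin, by 0.19 and 0.42. Among 16 claudins and tight junction proteins, the scaffold Tjp1 gave 0.24 and the claudin Cldn4 -0.28 (edgeR adjusted p = 0.406 for both). Of 28 duct markers tested, 12 rose and 4 fell in inducible lines (16.8% of all features in each direction). In negative lines 9 rose and 6 fell (15.8% and 14.9% of all features). The median difference of the 28 was 0.007, in a range of -0.62 to 0.43. The keratins Krt8 and Krt18 rose in both genotypes, by 0.43 and 0.40 in inducible lines and by 0.64 and 0.60 in negative lines, with differences of -0.21 and -0.20 (edgeR adjusted p = 0.48 and 0.475).

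Transcript length and GC content moved with the difference. With protein-coding genes sorted by transcript length into 5 groups of equal size, the median difference from the shortest to the longest was -0.06, -0.04, -0.01, 0.01 and 0.06. From the lowest to the highest GC content it was 0.03, 0.04, 0.01, -0.05 and -0.09. In the group of highest GC content, the median change was 0.01, -0.05 and -0.09 in A217, A220 and A225, against 0.04 and 0.05 in A218 and A223. In that of lowest GC content, A217 stood at -0.04 and the other inducible lines at 0.08 and 0.06. These medians are of the size of many list medians above. With an offset for both properties, 3 features passed as before, and the median was -0.18 for inflammation genes, -0.10 for actomyosin genes, -0.09 for hypoxia genes, 0.04 for glycosyltransferases and 0.01 for the EGF receptor family. The part of GC content and length in single genes was not tested beyond this offset, under which Creb3l2 had a difference of 0.37 (edgeR adjusted p = 0.0905).

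**Figure D5:**
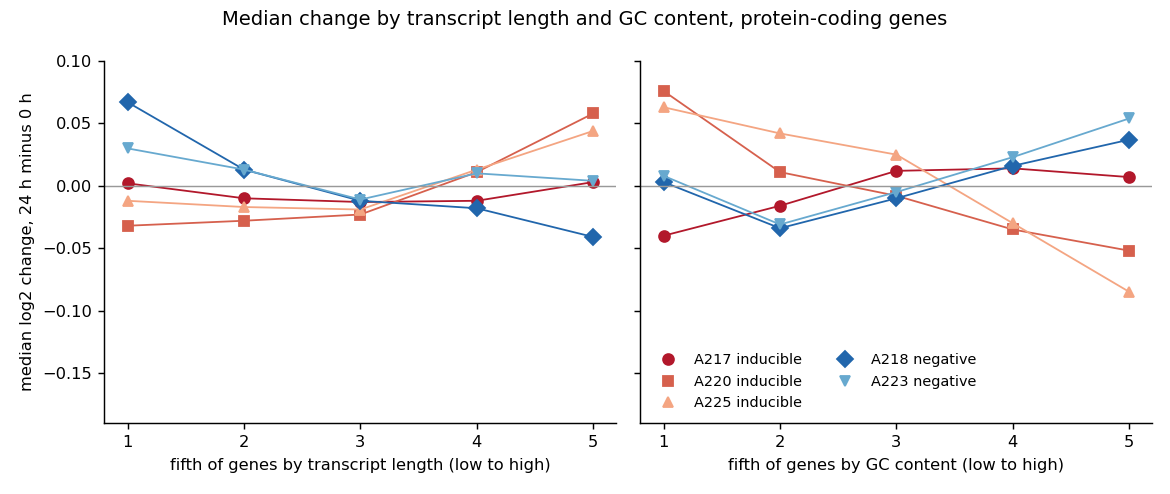
Median log2 change between 24 and 0 h of protein-coding genes sorted into 5 groups of equal size by transcript length (left) and GC content (right), 1 line per organoid line, inducible in red and negative in blue. In the group of highest GC content A220 and A225 sit at -0.05 and -0.09, A218 and A223 at 0.04 and 0.05, and A217 near 0.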

How the data were processed

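The authors' deposited files hold kallisto estimated counts per transcript, not normalised, with TPM values, per the file headers; the deposited TPM values were used only to check the files. Per the submitters' processing notes, kallisto 0.43.1 and GRCm38 were used, and the notes also name DESeq2 1.18.1. Neither the annotation behind the index nor the strand setting is given in the sources used here; without strand, a gene and an antisense partner cannot be separated. The kits named are Ribo-zero for rRNA depletion and TruSeq, per the labels' protocols.

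Estimated counts were summed per gene with GENCODE M21 and rounded; 1295 unmatched transcripts held 0.556 to 0.593% of a library and were left out. Features with a mean of at least 1 CPM over the 10 libraries of 0 and 24 h (12167, at least 99.8% of counts) were tested with edgeR 4.0.16 (R 4.3.3), quasi-likelihood F test, TMM scaling (factors 0.977 to 1.018), the organoid line as block and all 15 libraries (biological coefficient of variation 0.056, 6 residual degrees of freedom). Benjamini-Hochberg adjustment covered all 12167 features, with a threshold of 0.05. Per-line changes use log2 CPM with a prior count of 1. The same lines were sampled at each time, so lines pair the libraries; deviations from the group means at 24 and 0 h correlated at 0.667 to 0.808 within lines, where groups of 2 mirror each other. Alternatives were DESeq2 1.42.0, limma 3.58.1, other scaling, filters and library sets, a GC and length offset and leaving out each line. The scripts were tested on simulated data.

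Named genes were those called without overlap between lines, filled up to 10 per direction by the smallest p, the 1 or 2 list members with the smallest p, up to 4 called per list, and Egfr, Efemp1, Fut1 and B3galt5; further list members named were chosen for their role or after their values were seen. The members and the 36 lists were chosen with earlier results of these data known.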

Additional observations from a re-analysis of the deposited data

Results flagged for a closer look

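3 features differed between the genotypes by the test of the difference of responses itself (edgeR quasi-likelihood, adjusted over 12167 features). EGFP had a log2 difference of 9.73 and the human transcripts of 7.96, both higher in inducible lines after 24 h. The processed pseudogene Gm5537 had -19.41, with all 441 counts of the negative lines at 0 and 24 h in 1 library, and its sequence is identical to Pgk1.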

How the results depend on the processing

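The difference of responses gave 3 calls, 2 higher and 1 lower. With no replicate block it gave 2 calls (0 lower; 269 features at unadjusted p below 0.05), and the responses gave 1048 calls in inducible and 742 in negative lines, against 4098 and 3737 with the block. With the 10 libraries of 0 and 24 h alone it gave 6 calls (5 higher), which added Gm11518, Creb3l2 and Pou2f2. DESeq2 gave 16 (10 higher, 6 lower), limma 0 lower, and the fit with no expression filter 34 (23 higher, 11 lower). Leaving out processed pseudogenes or summing the copies of Pgk1 and Rpl27, both chosen after seeing the data, left 0 lower. Without 1 line each, calls ranged from 1 to 3, with 1 to 2 higher and 0 to 1 lower, and the lowest counts were without A218, where Gm5537 failed the filter. Leaving out 1 line gave 2005 to 4051 calls in inducible lines, lowest without A220 (2005) and A225 (2042), and 1501 to 3677 in negative lines, lowest without A223 (1501) and A218 (1749). A fit without a line also had fewer lines, and the cause of these shifts was not tested. EGFP and the human transcripts were called under all alternatives run, except EGFP without A218. Signs turned for Egfr with the GC and length offset (-0.069), for Axin2 when lines were left out (-0.857 to 0.003) and for Thy1 (-0.062 to 0.185). With 2 negative lines, low genes had wide intervals.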
